A study of Mus musculus with 30 samples.

Results

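The compared cells were monocytes sorted from the glioma-bearing brain that held no tumor-derived green fluorescence (GFPneg glioma monocytes) and Ly6Clow monocytes sorted from the blood of mice carrying the same tumor. They were chosen by sample label, with 3 replicates in each population, so the comparison used 6 of the 28 replicates that the 8 sorted populations gave (30 libraries in all). Every mouse was a heterozygous C57BL6.CCR2RFP/WT animal aged 12 to 18 weeks, in which a red fluorescent protein replaces 1 of the 2 copies of the chemokine receptor gene Ccr2, so both populations have a single intact Ccr2 allele. All mice had been implanted in the striatum with GL261.BpalmGFP cells, a mouse glioma line that carries a palmitoylated GFP on its membranes and can pass it to other cells, and tissue was taken at 30 days. No tumor-free mouse was included among these samples. The glioma monocytes came from mice 22, 24 and 26 and the Ly6Clow monocytes from mice 22, 23 and 24, with 1 mouse per replicate, and values below are given in those orders. The brain sort took CD11bhigh CD45high F4/80+ Ly6Chigh cells without GFP after enzymatic digestion at 37 °C, whereas the blood sort took CD45high CD115high CD11clow Ly6Clow cells, and enzymatic digestion is described for the brain only. Tissue, gate and digestion therefore cannot be told apart in this comparison.

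Blood monocytes exist in a pair of main states. Ly6Chigh (classical) monocytes leave the marrow, follow CCR2 ligands into inflamed tissue and can mature there into macrophages, or can convert in the blood into Ly6Clow (patrolling) monocytes, which depend on the nuclear receptor NR4A1 and survey the vessel wall. Monocytes that enter a glioma lie among resident microglia, which share many surface proteins with them. Ly6Chigh blood monocytes from mice 22, 23 and 24 were sequenced as well, and their values are given beside the others, in that order, to show for each gene on which side of the blood populations the glioma monocytes lay.

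Sequencing gave 1683203 to 2154652 reads on genes per glioma monocyte library and 1942915 to 3222246 per Ly6Clow library. The Ly6Clow library of mouse 23 stood apart: it held 7826 detected genes against 11300 and 13337 in the other Ly6Clow libraries and 13006 to 14244 in the glioma monocytes, and 13.3% of its reads were on spike-in RNA, against 2.47% and 0.779% in the other Ly6Clow libraries and 0.319% to 0.742% in the glioma monocytes. It is a repeat library of that sample from a second count table, used because the first library failed the study's quality limit. Its rank correlation across genes was 0.711 and 0.715 with the other Ly6Clow libraries, which reached 0.874 with each other. The glioma monocyte libraries correlated at 0.879 to 0.920. Spike-in counts, which could serve as a measure of RNA per library, thus also differed between the populations. The study put a fixed amount of RNA into each reverse transcription and added the spike-ins before that step. The spike-in share therefore does not measure RNA per cell or the number of cells. For a gene, fewer cells of a type and less RNA per cell cannot be told apart in such bulk libraries. Y-linked genes were at 0 and Xist was at 53.6 CPM in the glioma library of mouse 26, while the 5 other compared libraries held Y-linked reads and no Xist, so these sex-linked genes differed within the glioma group. The study used male and female mice. Mouse 26 gave no Ly6Clow library, and the part of sex in values that stood apart in mouse 26 was not tested.

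Expression is given as normalized read counts (CPM, counts scaled to a common total after TMM), with log2 fold changes ± SE from 1 edgeR quasi-likelihood fit over all 28 replicates, n = 3 per population, and Benjamini-Hochberg adjusted p over all genes tested. CPM values are not divided by gene length, so they compare samples for a gene and not genes with each other. Of 11566 genes tested, 1506 (13%) were called higher in the glioma monocytes than in Ly6Clow monocytes at an adjusted p under 0.05, and 637 (5.51%) were called lower. The glioma replicates all lay above the Ly6Clow replicates for 2216 genes (19.2%) and all below for 913 (7.89%). Together 2143 genes (18.5%) were called. For reference, 1286 genes (11.1%) were called higher and 310 (2.68%) lower in glioma than in Ly6Chigh monocytes, and 227 (1.96%) higher and 422 (3.65%) lower in Ly6Chigh than in Ly6Clow monocytes. The median log2 fold change over all genes was 0.24. Among the genes called higher, 465 had no read in any Ly6Clow library, while 6 of those called lower had none in any glioma library. For a gene at 0, a fold is given only as a lower bound against the limit of 3 counts per library, averaged over the libraries. The number of lower calls depended on the scale. With the spike-ins in place of TMM the median over all genes was 1.70, and 1503 genes were called higher and 12 lower. With only the 6 compared libraries in the fit, 169 genes were called higher and 57 lower. The main calls thus rest on a spread estimated over all 28 replicates, most of them from other populations.

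**Figure D1:**
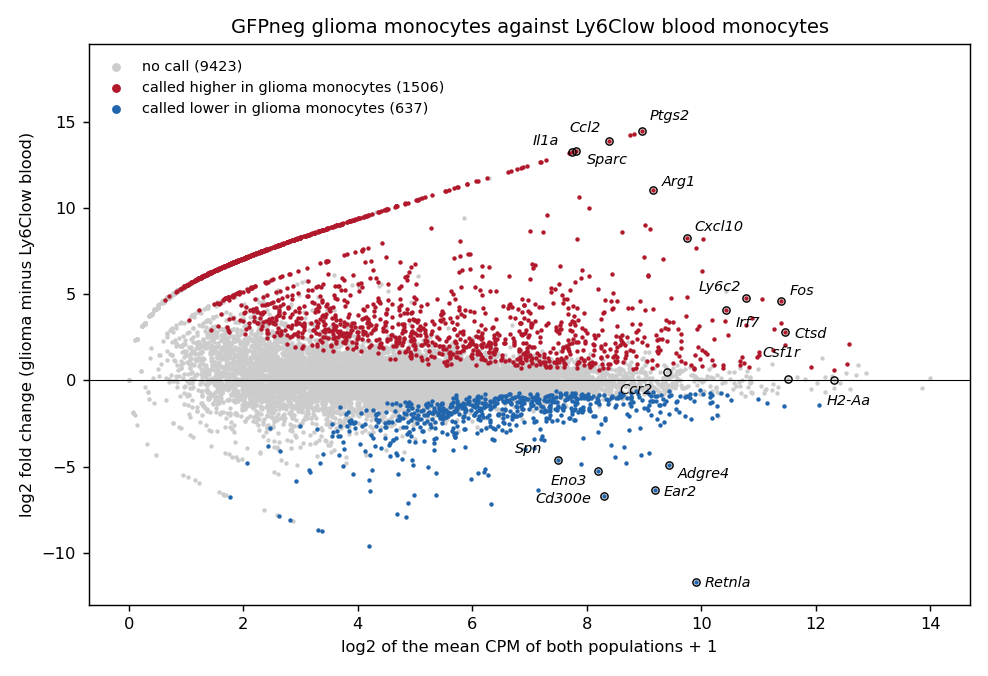
Each point is 1 of 11566 genes tested, with its mean expression over the 6 compared libraries on the x axis (log2 CPM) and the fitted log2 fold change, glioma monocytes minus Ly6Clow monocytes, on the y axis. The 1506 genes called higher and 637 called lower are colored, and the curved upper edge is made of genes with no read in any Ly6Clow library, whose fitted value is not a measured fold.

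The sort marker Ly6c2 followed the gates, whereas the other sort markers gave no call or a fragile one. Ly6c2, which encodes the Ly6C antigen of the gate, was at 3496, 3763 and 2857 CPM in the glioma monocytes and at 27.8, 273 and 68.1 CPM in Ly6Clow monocytes, a log2 difference of 4.78 ± 0.58 (adjusted p = 1.23e-06). This difference is what the gates selected for, and reads of Ly6c2 cannot be fully separated from those of its near copy Ly6c1. Ly6Chigh blood monocytes had 964, 1273 and 1291 CPM, less than the glioma monocytes (log2 difference 1.52, adjusted p = 0.0438). Csf1r, the receptor CD115 used to gate the blood cells, was at 2617, 3009.9 and 3452 CPM in the glioma monocytes and 1945, 2558 and 3940.4 CPM in Ly6Clow monocytes, and it passed no test (log2 difference 0.10, adjusted p = 0.822). Adgre1, the F4/80 antigen, was at 299, 318 and 358 against 417, 379.8 and 401 CPM, and Itgam, the CD11b antigen, at 567, 487 and 1650.5 against 308, 601 and 978 CPM, and neither passed. Ptprc, which encodes CD45, fell by 0.83 ± 0.24 on the log2 scale, from 1399, 1656 and 2284 to 944, 1096 and 968 CPM (adjusted p = 0.0148), but the call was lost without glioma replicate 22 or 26 or Ly6Clow replicate 24 (adjusted p 0.0672 to 0.082), and with spike-in scaling its sign turned. Fcgr1, the high-affinity IgG receptor CD64 that marks macrophages and maturing monocytes, rose by 4.21 ± 0.27 on the log2 scale, from 30.7, 49 and 48.8 to 755, 806 and 827 CPM (adjusted p = 2e-11), and stood above the 141, 188 and 118 CPM of Ly6Chigh monocytes as well.

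Genes of the patrolling program were lower in the glioma monocytes. Of 20 patrolling genes, all tested, 13 were called lower and 0 higher, beside 5.51% lower and 13% higher over all genes, and the median of the list was -2.59 on the log2 scale, beside 0.24 over all genes. For each of the 13 every glioma replicate lay below every Ly6Clow replicate, as for 7.89% of all genes. With the spike-ins as scale 6 of these genes were called lower and 0 higher.

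Several of these genes were low in the glioma monocytes, and Cd300e and S1pr5 were near the limit of 3 counts in some glioma libraries. Cd300e, an activating receptor of the CD300 family, was at 569, 397 and 910.1 CPM in Ly6Clow monocytes and at 13, 2.68 and 1.94 CPM in the glioma monocytes, and it fell by 6.69 ± 1.29 on the log2 scale (adjusted p = 0.000752). S1pr5, the sphingosine-1-phosphate receptor that patrolling monocytes need to leave the marrow, was at 316, 8.87 and 145 CPM and fell to 2.51, 0.535 and 0 CPM (log2 difference -7.13 ± 1.54, adjusted p = 0.00268). Its Ly6Clow values spread widely, with the lowest in the library of mouse 23. Eno3, an enolase isoform otherwise known from muscle, stood at 484, 529.8 and 689.9 against 12.5, 8.03 and 24.5 CPM and fell by 5.25 ± 0.44 (adjusted p = 3.46e-09). Pglyrp1, a peptidoglycan recognition protein, stood at 843, 731 and 810.3 against 18.1, 45.5 and 22.6 CPM and fell by 4.79 ± 0.55 (adjusted p = 6.18e-07). For Eno3 and Pglyrp1 the Ly6Clow replicates lay close together and the highest glioma replicate was far below the lowest of them.

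Surface receptors of patrolling cells moved in the same direction. Treml4, a TREM-like receptor, was at 885, 709.8 and 1204 CPM in Ly6Clow and 63.2, 59.4 and 18.7 CPM in glioma monocytes (log2 difference -4.3 ± 0.81, adjusted p = 0.000395). Adgre4, an adhesion receptor of the same family as F4/80, was at 934, 1453 and 1616 against 46.7, 70.1 and 15.5 CPM (log2 difference -4.91 ± 0.75, adjusted p = 3.39e-05). Ace, the angiotensin-converting enzyme, was at 450.05, 267 and 658 against 20.6, 23 and 3.23 CPM (log2 difference -4.86 ± 0.92, adjusted p = 0.000465). For these genes the blood populations were not called apart: Ly6Chigh minus Ly6Clow was -1.57 for Treml4, -1.21 for Adgre4 and -0.83 for Ace (adjusted p = 0.197, 0.268 and 0.574), and in all 3 genes the glioma monocytes were also below the Ly6Chigh monocytes (log2 difference -2.73, -3.7 and -4.03, adjusted p = 0.0144, 0.000565 and 0.00242). Spn, the sialomucin CD43, was at 231, 469 and 335 against 11, 22.5 and 8.39 CPM and fell by 4.62 ± 0.54 (adjusted p = 8.24e-07). Cd36, the scavenger receptor for lipids and oxidized lipoprotein, was at 562, 686 and 653 against 49.7, 22 and 72.3 CPM and fell by 3.73 ± 0.51 (adjusted p = 7.34e-06). Spn and Cd36 did separate the blood populations, with Ly6Chigh monocytes at 66.3, 30.5 and 55.8 CPM for Spn and 162, 38.1 and 54.3 CPM for Cd36 (log2 difference to Ly6Clow -2.76 and -2.91, adjusted p = 0.00124 and 0.000639).

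Itgal, the alpha chain of the integrin LFA-1 with which patrolling cells hold on to endothelium, fell by 2.22 ± 0.35, from 788, 1619 and 2058 to 232, 433 and 292 CPM (adjusted p = 5.58e-05). Pou2f2, a POU-domain transcription factor, fell by 2.76 ± 0.56, from 203, 54.7 and 168 to 19.6, 30 and 12.9 CPM (adjusted p = 0.000854), and Gngt2, a G protein gamma subunit, by 2.41 ± 0.37, from 1608, 729 and 944 to 258, 211 and 145 CPM (adjusted p = 3.6e-05). Bcl2, a survival factor of patrolling cells, had the smallest change of those called, -1.76 ± 0.57 (adjusted p = 0.0308), and its call was lost without glioma replicate 22 or 26 or Ly6Clow replicate 24 (adjusted p 0.102 to 0.156). Itgal and Spn are also expressed by lymphocytes. The summed level of 11 T and NK cell markers ran from 896 to 2104 CPM in the glioma monocytes and from 1071 to 1876 CPM in Ly6Clow monocytes, ranges that overlapped, and was 31.6 to 211 CPM in Ly6Chigh monocytes. The part of these markers in the result was not tested.

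**Figure D2:**
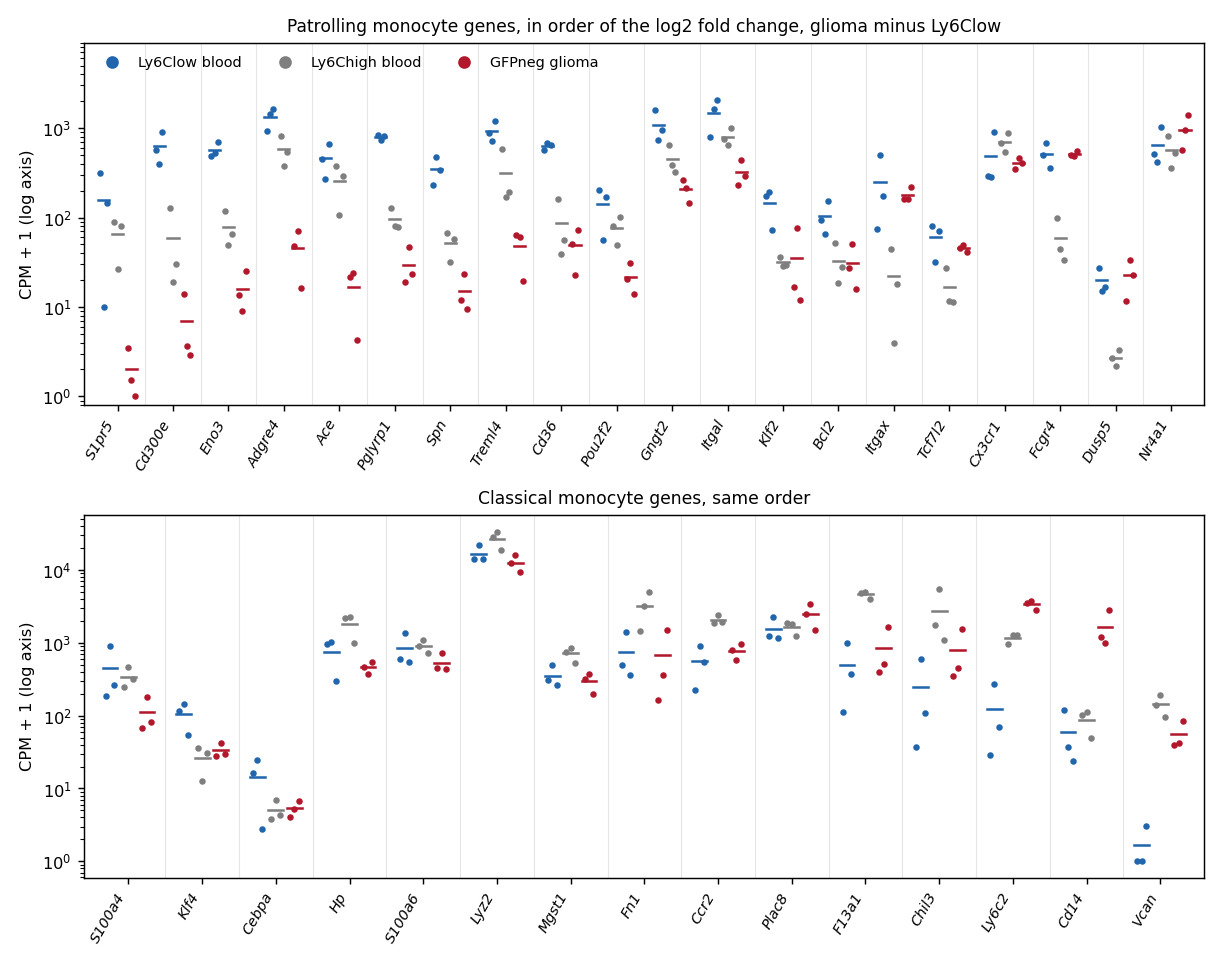
Normalized read counts of patrolling and classical monocyte genes in each replicate of Ly6Clow blood, Ly6Chigh blood and GFPneg glioma monocytes, on a log axis (CPM + 1), with 1 point per mouse, means as bars and 1 classical gene not drawn. For genes such as Eno3 (12.5, 8.03 and 24.5 CPM) and Pglyrp1 (18.1, 45.5 and 22.6 CPM) the glioma points lie below both blood populations, whereas Nr4a1 (560.3, 939 and 1381 CPM) lies among them.

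The remaining 7 patrolling genes passed no test. Nr4a1, the nuclear receptor on which patrolling monocytes depend, was at 560.3, 939 and 1381 CPM in glioma and 510.4, 411 and 1023 CPM in Ly6Clow monocytes (log2 difference 0.57 ± 0.54, adjusted p = 0.515). Nr4a1 is also an immediate-early gene. Cx3cr1, the fractalkine receptor, was at 347, 460.4 and 405 against 290.1, 283 and 894 CPM (log2 difference -0.28 ± 0.36, adjusted p = 0.651). Klf2, a transcription factor of quiescent leukocytes, was at 15.6, 75 and 11 against 173, 191 and 71 CPM, with a log2 difference of -2.1 ± 0.82 that missed the threshold (adjusted p = 0.0746) and passed it with the mouse as a block (log2 difference -2.32, adjusted p = 0.00685).

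The other 4 of these genes were not called against Ly6Clow monocytes but were higher than in Ly6Chigh monocytes. Fcgr4, the IgG receptor that marks patrolling monocytes, was at 499, 482 and 550.4 CPM in glioma, 498, 682 and 358 CPM in Ly6Clow and 97.2, 43.9 and 32.2 CPM in Ly6Chigh monocytes. Its log2 difference was -0.0062 ± 0.34 from Ly6Clow (adjusted p = 0.992) and 3.15 ± 0.37 from Ly6Chigh (adjusted p = 8.18e-07). Fcgr4 thus had overlapping replicates with the Ly6Clow cells and none with the Ly6Chigh cells. Itgax, the CD11c antigen that the blood gate took as low, was at 162, 158 and 217, 73.6, 495 and 175 and 43.3, 2.93 and 16.9 CPM in the same order of populations, and its log2 difference was -0.47 ± 0.56 from Ly6Clow and 3.09 ± 0.62 from Ly6Chigh (adjusted p = 0.615 and 0.000919). Tcf7l2, a Wnt pathway transcription factor, differed by -0.44 ± 0.46 from Ly6Clow and by 1.49 ± 0.47 from Ly6Chigh (adjusted p = 0.554 and 0.0352), and Dusp5, a nuclear phosphatase of ERK, by 0.20 ± 0.62 and 3.56 ± 0.72 (adjusted p = 0.866 and 0.000955). The test that separates these steps is that of Ly6Chigh minus Ly6Clow, which gave -3.16 for Fcgr4, -3.56 for Itgax, -1.93 for Tcf7l2 and -3.36 for Dusp5 (adjusted p = 1.21e-05, 0.00114, 0.0161 and 0.00499).

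MHC class II genes, which present peptides to CD4 T cells, were not called against Ly6Clow monocytes either. Members of this list are named here after their values were seen. Of 10 genes, 0 were called in either direction by edgeR, beside 18.5% of all genes, 2 had an unadjusted p under 0.05, and DESeq2 called 0. The list median was 0.25, beside 0.24 over all genes. H2-Aa, an alpha chain of the peptide-binding dimer, was at 5701, 5844 and 3825 CPM in glioma, 2300.2, 9089 and 3663 CPM in Ly6Clow and 1284, 1474 and 1119 CPM in Ly6Chigh monocytes, a log2 difference of 0.03 ± 0.37 from Ly6Clow and 1.99 ± 0.39 from Ly6Chigh (adjusted p = 0.968 and 0.000712). H2-Eb1, a beta chain, differed by 0.10 ± 0.36 from Ly6Clow and 2.77 ± 0.39 from Ly6Chigh (adjusted p = 0.882 and 1.1e-05). H2-Ab1, the partner of H2-Aa, had the only glioma replicates without overlap, at 9969, 10646 and 6263 against 4156, 4793 and 5237 CPM, yet it did not pass (log2 difference 0.92 ± 0.38, adjusted p = 0.0922). Against Ly6Chigh monocytes 7 of the 10 genes were called higher, beside 11.1% of all genes. The spread of the Ly6Clow libraries was wide here, and the mouse 23 library held the highest value of H2-Aa, H2-Eb1 and Cd74. Cd74, the invariant chain, was at 9012, 26046 and 11327 CPM in the Ly6Clow libraries. Restricted to mice 22 and 24, which gave both populations, with the mouse as a block, 8 of the 10 were called higher in the glioma monocytes, and with the mouse as a block over all 28 replicates 2 were. The summed dendritic cell markers were also highest in the mouse 23 library, at 2373 CPM against 670 and 1515 CPM in the other Ly6Clow libraries and 491 to 897 CPM in the glioma monocytes. Of 9 dendritic cell markers 2 were called lower and 2 higher, beside 5.51% and 13% of all genes. The lower ones were Clec10a (log2 difference -2.84 ± 0.50, adjusted p = 0.000188) and Cd209a (-4.19 ± 1.39, adjusted p = 0.0359, a call lost without glioma replicate 22 or 26 or Ly6Clow replicate 23). Both calls were lost with spike-in scaling. Xcr1 was higher by 4.31 ± 0.88 (adjusted p = 0.00101), as was Siglech, given with the microglia markers. The part of dendritic cells in the MHC class II levels was not tested.

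**Figure D3:**
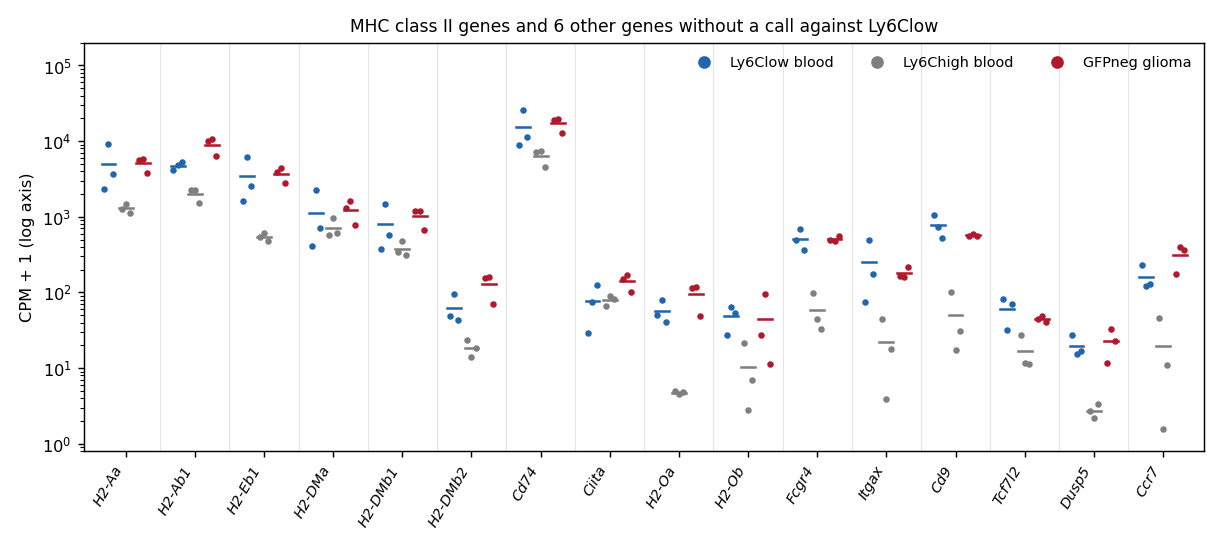
Normalized read counts (CPM) of 10 MHC class II genes and of Fcgr4, Itgax, Cd9, Tcf7l2, Dusp5 and Ccr7 in each replicate of Ly6Clow blood, Ly6Chigh blood and GFPneg glioma monocytes, with 1 point per mouse and means as bars on a log axis (CPM + 1). For Fcgr4 the glioma points (499, 482 and 550.4 CPM) lie among the Ly6Clow points and above all Ly6Chigh points (97.2, 43.9 and 32.2 CPM).

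Classical monocyte genes did not move together. Of 16 tested, 4 were called higher and 2 lower, beside 13% and 5.51% of all genes. The median was 0.17, beside 0.24 over all genes. Besides Ly6c2, the genes that rose included Vcan and Cd14. Vcan, the matrix proteoglycan versican, rose from 0, 0 and 2.07 to 38.6, 41.2 and 82.6 CPM (log2 difference 6.02 ± 1.63, adjusted p = 0.0107), with 139.9, 192 and 93.4 CPM in Ly6Chigh monocytes. Cd14, the co-receptor for bacterial lipopolysaccharide, rose from 119, 36.6 and 22.8 to 1206, 1000.1 and 2798 CPM (4.82 ± 0.74, adjusted p = 4e-05). Ly6Chigh monocytes had 100, 112 and 48.5 CPM of Cd14 and were not called apart from Ly6Clow monocytes (adjusted p = 0.671), and the glioma monocytes were above both.

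Other classical genes were not called between glioma and Ly6Clow monocytes although the Ly6Chigh cells held far more of some. Ccr2, with its single intact allele in these mice, was at 802, 588 and 953 CPM in glioma, 221, 916 and 547 CPM in Ly6Clow and 1890.4, 2384 and 1906 CPM in Ly6Chigh monocytes (log2 difference 0.48 ± 0.48 from Ly6Clow, adjusted p = 0.538). F13a1, a coagulation factor of classical monocytes, was at 401, 514 and 1625, 111, 991 and 376 and 4831, 5043 and 4038 CPM, with 0.78 ± 1.1 from Ly6Clow (adjusted p = 0.677). Chil3, a chitinase-like protein, was at 346, 457 and 1559, 36.3, 601 and 107 and 1731, 5491 and 1110.4 CPM, with 1.67 ± 1.0 (adjusted p = 0.262). In Ccr2, F13a1 and Chil3 the mouse 23 library held the highest Ly6Clow value. Fn1, Hp, Plac8, Lyz2, S100a6, Cebpa and Mgst1 were not called, with log2 differences from -1.63 for Cebpa to 0.68 for Plac8. With the mouse as a block Chil3 and Plac8 were called higher (log2 difference 2.54 and 1.07, adjusted p = 0.00439 and 0.00561). S100a4 and Klf4 were lower, with log2 differences of -2.04 ± 0.58 and -1.69 ± 0.59 (adjusted p = 0.0154 and 0.0461), and both turned sign with spike-in scaling. Without the mouse 23 library neither was called (adjusted p up to 0.208 and 0.155 over the libraries left out), nor without glioma replicate 22 or 26, and the Klf4 call was also lost without glioma replicate 24 or Ly6Clow replicate 22.

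Among the other named genes that fell, several were at a few reads or none in the glioma monocytes. Retnla (chr16:48842551-48844461, GRCm38, plus strand), which encodes a resistin-like protein of alternatively activated macrophages, was at 2879, 2560.5 and 282 CPM in Ly6Clow monocytes and at 1.5, 0 and 0 CPM in the glioma monocytes, where only mouse 22 gave reads. The ratio of pooled levels was 3053 (95% interval for counting error 1044 to 14805; adjusted p = 1.46e-05), and Ly6Chigh monocytes had 40.4, 48 and 0.836 CPM. Ear2, an eosinophil-associated ribonuclease with near copies in the genome, fell by 6.36 ± 0.87, from 1038, 1319 and 1102 to 18.6, 20.3 and 2.58 CPM (adjusted p = 7.42e-06). Fcna, a ficolin that binds sugars on microbes, was at 25.5, 101 and 42.6 against 0, 1.07 and 0 CPM, Tgm3, a transglutaminase, at 33.5, 92.1 and 21.9 against 0, 0.535 and 0 CPM, and Skint3, a butyrophilin-like gene, at 31.1, 57.1 and 93.2 against 0, 1.07 and 0.645 CPM. Prg4, which encodes lubricin, stood at 86.8, 139.6 and 13.6 against 0.502, 0 and 1.94 CPM, AU041133 at 9.91, 87.5 and 6.81 against 0 in each glioma library, and Zfp712 at 2.36, 94.5 and 7.1 against 0.502, 0.535 and 0 CPM. AU041133 was thus at least 20.7-fold lower in the glioma monocytes. AU041133, Tgm3, Fcna, Prg4 and Zfp712 were highest in the mouse 23 library. The calls of Prg4 and Zfp712 were lost when single libraries were left out (5 and 4 of the 6, adjusted p 0.0511 to 0.111 and 0.0848 to 0.254), and that of Zfp712 also with the mouse as a block (adjusted p = 0.109). The Ear2 call was lost under none of the 15 alternatives in which it was tested. Fabp4, a fatty acid binding protein, a member of the lysosome and lipid list, was at 211, 84.8 and 67.8 against 1.0, 2.14 and 3.87 CPM (log2 difference -5.7 ± 1.45, adjusted p = 0.00699). With spike-in scaling the calls of AU041133, Tgm3, Skint3, Prg4, Zfp712 and Fabp4 were lost.

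Cytokine genes were higher in the glioma monocytes. Of 20 on the list 16 had reads enough to be tested, and 12 of these were called higher and 0 lower, beside 13% and 5.51% of all genes. The list median was 4.14 on the log2 scale, and 4.08 with genes at 0 in the Ly6Clow cells set to their bound. Il1a and Il1b encode the inflammatory cytokines IL-1alpha and IL-1beta, and Il1rn encodes the antagonist that blocks their receptor. Il1b was at 129, 210.1 and 128 CPM in Ly6Clow and 3350.01, 2968 and 6021 CPM in glioma monocytes (log2 difference 4.72 ± 0.63, adjusted p = 5.79e-06). Il1a was at 0 in every Ly6Clow and Ly6Chigh library and at 265, 263 and 748 CPM in glioma monocytes, at least 369-fold higher (adjusted p = 7.25e-08). Il1rn was at 2.36, 0 and 17.5 against 1754, 3098 and 1424 CPM (8.22 ± 0.74, adjusted p = 1.01e-08). The 3 IL-1 genes were therefore all raised, agonists and antagonist alike. Osm, which encodes oncostatin M of the IL-6 family, was at 0, 23.1 and 4.44 against 1540.1, 2652 and 1533 CPM (7.68 ± 0.76, adjusted p = 4.88e-08). With only the compared libraries in the fit 4 genes of the list were called higher.

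Chemokine genes were higher as well. All 21 were tested, 17 were called higher and 0 lower, beside 13% and 5.51% of all genes, and the median was 8.25 (6.67 with bounds). The ligands of CCR2 were among them. Ccl2 (chr11:82035571-82037453, GRCm38, plus strand) was at 0 in each Ly6Clow library and at 574, 480.2 and 952 CPM in glioma monocytes, at least 579.8-fold higher (adjusted p = 7.47e-11). Ccl7, its neighbor on the same chromosome at 82045712-82047525, was at 0 against 186, 121 and 556 CPM, at least 249-fold higher (adjusted p = 1.62e-09), and Ccl12, at 82101845-82103400, at 0 against 228, 165 and 311 CPM, at least 204-fold higher (adjusted p = 4.62e-12). Ly6Chigh blood monocytes held at most 7.11 CPM of Ccl2 and none of Ccl7 or Ccl12. Ccl4, an inflammatory CC chemokine, rose from 7.08, 0 and 0.888 to 773, 1424 and 1090.4 CPM (log2 difference 8.81 ± 0.68, adjusted p = 9.47e-10). Cxcl2, a neutrophil attractant that binds CXCR2, was at 0 against 423, 192 and 1959 CPM, at least 744-fold higher (adjusted p = 3.01e-05), with the highest value in mouse 26. With only the compared libraries in the fit 12 genes of the list were called higher. Members without reads in the Ly6Clow libraries entered the test only through the populations in which they were read, so the counts and medians of such lists hold those genes by construction. When 10 counts were required in each of the 6 compared libraries, 4 chemokines were tested, with 1 called higher and a median of -0.47, and 2 cytokines, with 1 called higher. The same requirement left 7 hypoxia genes with 2 called higher, 7 arginine, itaconate and suppressive genes with 3, 9 matrix genes with 5, 4 cell cycle genes with 1 and 2 microglia markers with 1. It also left 4 B and plasma cell markers with 1 called higher, and 2 astrocyte and oligodendrocyte markers with 1 higher and 1 lower. No marker of glioma, stroma and endothelium remained.

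The promoter of Cxcl2 is shown because NF-kB sites are a known feature of inflammatory chemokine promoters. The 250 bases before the RefSeq gene start (GRCm38.p6, chr5:90903649-90903898, plus strand) hold 1 match to the letters GGANTTTCC on either strand, in capitals.
Cxcl2: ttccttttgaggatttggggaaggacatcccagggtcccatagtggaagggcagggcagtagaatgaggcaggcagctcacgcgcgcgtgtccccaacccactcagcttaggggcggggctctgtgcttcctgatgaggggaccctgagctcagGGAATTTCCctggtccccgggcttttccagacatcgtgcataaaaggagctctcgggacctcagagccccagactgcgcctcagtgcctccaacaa
Of the chemokine genes with a promoter window of 250 bases before and 50 after the start, 4 of 14 (28.6%) held such a match, as did 4 of 14 cytokine genes (28.6%) and 4 of 13 NF-kB feedback genes (30.8%), beside 1.45% of 27025 genes with a window and 1.67% of the 8701 tested genes with one. A match describes the letters and is not a measured site.

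Interferon-stimulated genes were raised in nearly the whole list. Of 25 genes, all tested, 22 were called higher and 0 lower, beside 13% and 5.51% of all genes, with a median of 2.97. Isg15, a ubiquitin-like modifier, rose from 23.1, 65.5 and 26 to 995, 1265 and 549.7 CPM (log2 difference 4.61 ± 0.50, adjusted p = 2.65e-07). Irf7, the transcription factor that amplifies type I interferon, rose from 117, 144 and 207 to 2507, 3342 and 1963 CPM (4.06 ± 0.39, adjusted p = 2.83e-08), and in Ly6Chigh monocytes it was at 338, 402 and 463 CPM. Bst2, the tetherin that holds budding viruses at the membrane, rose from 104, 116 and 94.1 to 644, 735 and 475 CPM (2.56 ± 0.23, adjusted p = 1.46e-08). Ifit3, an RNA-binding antiviral protein of a family with near copies, rose from 10.4, 3.47 and 27.8 to 563, 749.5 and 394 CPM (5.33 ± 0.58, adjusted p = 2.68e-07). In each of these 4 genes the lowest glioma replicate was above the highest Ly6Clow replicate. When single libraries were left out 16 to 21 genes of the list were called higher, and with only the compared libraries in the fit 8 were.

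The promoters of Isg15 and Rsad2 are shown for the interferon-stimulated response element, which is GAAA, then any 2 bases, then GAAA, on either strand (RefSeq, GRCm38.p6, 250 bases before the start, written along the gene, matches in capitals). Isg15 lies on the minus strand of chr4:156200819-156201068 and holds 3 overlapping matches, which start 66 to 78 bases before the gene. Rsad2, which encodes viperin and was at 10.9, 0 and 33.7 CPM in Ly6Clow and 691, 1236 and 1234 CPM in glioma monocytes, lies on the minus strand of chr12:26456453-26456702 and holds 1 match, 120 bases before the gene. Rsad2 was chosen for this after its value was seen.
Isg15: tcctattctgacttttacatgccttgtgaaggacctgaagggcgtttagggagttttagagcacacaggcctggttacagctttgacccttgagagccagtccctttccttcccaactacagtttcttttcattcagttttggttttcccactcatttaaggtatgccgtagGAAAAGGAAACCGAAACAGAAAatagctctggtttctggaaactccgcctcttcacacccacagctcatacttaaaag
Rsad2: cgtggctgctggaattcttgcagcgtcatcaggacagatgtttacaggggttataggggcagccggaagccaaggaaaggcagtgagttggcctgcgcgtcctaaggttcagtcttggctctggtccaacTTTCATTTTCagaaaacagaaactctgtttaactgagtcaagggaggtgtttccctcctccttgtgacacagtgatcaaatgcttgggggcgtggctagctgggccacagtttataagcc
Such a match was present in 12 of 19 list genes with a window (63.2%), beside 3.99% of 27025 genes with a window and 4.18% of the 8701 tested genes with one. The share describes the list and no test was made of it.

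NF-kB feedback genes, the inhibitors and family members that NF-kB itself induces, were called higher more often than lower. Of 16 tested, 9 were called higher and 1 lower, beside 13% and 5.51% of all genes, with a median of 1.4. Tnfaip3, the ubiquitin-editing enzyme A20 that dampens the pathway, rose from 9.91, 0 and 18.3 to 498, 485 and 1065 CPM (log2 difference 6.15 ± 0.84, adjusted p = 7.34e-06). Nfkbia, which encodes the inhibitor IkB-alpha, rose from 605, 167 and 387 to 1339, 1836 and 2837 CPM (2.38 ± 0.47, adjusted p = 0.000666), and Nfkbiz, a nuclear IkB protein, from 69.3, 27 and 46.2 to 417, 393 and 857 CPM (3.55 ± 0.68, adjusted p = 0.00051). Nfkbib rose by 1.46 ± 0.39 (adjusted p = 0.0105), a call lost without glioma replicate 24 or Ly6Clow replicate 23 (adjusted p = 0.0959 and 0.0541). Nfkb1, the precursor of the p50 subunit, fell by 2.17 ± 0.45, from 216, 404 and 404 to 61.7, 132 and 33.6 CPM (adjusted p = 0.00111). It was not called with spike-in scaling, with only the compared libraries in the fit or with the first library of Ly6Clow mouse 23. Without the Ly6Clow library of mouse 23, 3 genes of this list were called higher, and without glioma replicate 24, 5 were.

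Immediate-early and heat shock genes, which are also induced by warm enzymatic dissociation of tissue, were raised. Of 23 on the list 22 were tested, 14 were called higher and 0 lower, beside 13% and 5.51% of all genes. The median was 3.29. Fos, a subunit of the AP-1 transcription factor, rose from 76, 388 and 163 to 4371, 7406 and 3687 CPM (log2 difference 4.62 ± 0.46, adjusted p = 4.73e-08). Ier3 rose from 11.8, 13.5 and 4.44 to 1108, 1522 and 1211 CPM (7.03 ± 0.43, adjusted p = 1.31e-11), Zfp36, which destabilizes cytokine mRNAs, from 217, 716 and 535 to 4619, 6759 and 3357 CPM (3.33 ± 0.33, adjusted p = 6.03e-08), and Atf3 from 26.9, 9.25 and 45 to 539, 809 and 621 CPM (4.59 ± 0.62, adjusted p = 6.99e-06). These 4 genes were also above the Ly6Chigh monocytes, which came from blood (log2 difference 3.53, 6.63, 3.05 and 3.5; adjusted p = 1.69e-06, 2.66e-11, 2.59e-07 and 0.000128). The part of dissociation in the cytokine, chemokine and NF-kB values above was not tested.

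Genes of arginine and itaconate metabolism and of immune suppression were mostly higher. Of 21 on the list 20 were tested, 13 were called higher and 1, Retnla, lower, beside 13% and 5.51% of all genes. The median was 3.11 (2.98 with bounds). Irg1, the enzyme that makes itaconate from a citric acid cycle intermediate, was at 0, 0 and 3.85 CPM in Ly6Clow and 476, 474 and 402 CPM in glioma monocytes (log2 difference 8.2 ± 0.70, adjusted p = 4.66e-09). Slc7a11, the cystine-glutamate exchanger, was at 3.77, 0 and 0.592 against 101, 104 and 113 CPM (6.28 ± 0.71, adjusted p = 4.83e-07). Irg1 and Slc7a11 were close to equal in the 3 glioma replicates. Spp1, the secreted protein osteopontin, was at 4.72, 0 and 1.48 against 358, 156 and 1826 CPM (8.63 ± 1.03, adjusted p = 1.02e-06). Ptgs2 (chr1:150100031-150108227, GRCm38, plus strand), the inducible cyclooxygenase of prostaglandin synthesis, was at 0 in each Ly6Clow library and at 317, 252 and 2429.9 CPM in glioma monocytes, at least 867-fold higher (adjusted p = 0.000523). Spp1 and Ptgs2 were both highest in mouse 26. Trem2, a lipid receptor of macrophages and microglia, rose from 10.9, 57.8 and 17.2 to 196, 244 and 202 CPM (2.9 ± 0.39, adjusted p = 6.27e-06). Arg1, the arginine-degrading arginase, was named after its values were seen, at 0, 1.16 and 0.296 against 290.5, 473 and 2648 CPM (11.04 ± 1.45, adjusted p = 6.88e-06). Its Ly6Clow levels were near or below the limit of 3 counts per library, so the fitted size is not a measured fold.

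Glycolysis was higher by a small step in many genes. Of 20 tested, 11 were called higher and 0 lower, beside 13% and 5.51% of all genes. The median was 1.23, beside 0.24 over all genes, and all 20 fitted values were positive. Tpi1, triosephosphate isomerase, rose from 197, 139.6 and 316 to 1134, 1159 and 1874 CPM (log2 difference 2.67 ± 0.42, adjusted p = 5.32e-05). Pfkl and Pfkp, isoforms of the phosphofructokinase that commits sugar to glycolysis, rose by 2.74 ± 0.45 and 1.75 ± 0.30 (adjusted p = 8.79e-05 and 0.000165), Pfkl from 64.2, 25.4 and 109 to 382, 346 and 599 CPM and Pfkp from 86.8, 108 and 186 to 346, 476 and 465 CPM. Aldoa, an aldolase, rose from 1109, 1035 and 879 to 2085, 2026 and 2612 CPM (1.15 ± 0.22, adjusted p = 0.000465). Replicates of these 4 genes did not overlap. Without glioma replicate 26, 6 of the list were called, and with only the compared libraries 1 was.

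Of 20 genes of the hypoxia response 19 were tested, 6 were called higher and 0 lower, beside 13% and 5.51% of all genes. The median was 2.04 (1.77 with bounds). Hif1a, the oxygen-regulated transcription factor, rose from 80.2, 115 and 72.5 to 922, 746 and 967 CPM (log2 difference 3.3 ± 0.46, adjusted p = 9.09e-06). Vegfa, the vascular growth factor, was at 0 in all blood monocyte libraries and at 50.7, 57.3 and 88.4 CPM in the glioma monocytes, at least 56.8-fold higher than in Ly6Clow monocytes (adjusted p = 1.06e-06). Bnip3, a mitochondrial regulator of autophagy, rose from 22.6, 0 and 13.6 to 220.2, 143 and 419 CPM (4.44 ± 0.91, adjusted p = 0.00102). Ero1l, an oxidase of the endoplasmic reticulum, rose by 3.9 ± 1.13 (adjusted p = 0.0168), a call lost without glioma replicate 26 or Ly6Clow replicate 23 (adjusted p = 0.0775 and 0.0666). Without glioma replicate 26, 3 genes of the list were called. Bnip3 and Ero1l were highest in that replicate.

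The promoter of Ldha is shown for the core letters of the hypoxia response element, ACGTG on either strand (in capitals). Ldha encodes lactate dehydrogenase A and rose from 1334, 1719 and 961 to 1855, 2052 and 2996 CPM (log2 difference 0.78 ± 0.25, adjusted p = 0.0318), and it was chosen after its value was seen. Its 250 bases before the RefSeq start (GRCm38.p6, chr7:46845554-46845803, plus strand) hold 5 matches, which start 34 to 145 bases before the gene. CACGTG reads the same on both strands and gives a match on each, so some matches overlap and the stretches in capitals are fewer.
Ldha: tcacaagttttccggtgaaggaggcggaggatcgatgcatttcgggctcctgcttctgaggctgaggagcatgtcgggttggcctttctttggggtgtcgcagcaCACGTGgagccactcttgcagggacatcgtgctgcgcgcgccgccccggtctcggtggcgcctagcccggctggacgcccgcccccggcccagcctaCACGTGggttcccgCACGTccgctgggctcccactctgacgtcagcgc
This short motif was present in 14 of 19 glycolysis genes with a window (73.7%) and 12 of 16 hypoxia genes (75.0%), beside 21.8% of 27025 genes with a window and 29.8% of the 8701 tested genes with one.

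Of 25 genes of the mitochondrial respiratory chain, all tested, 0 were called higher and 3 lower, beside 13% and 5.51% of all genes, with a median of -0.23, beside 0.24. Uqcrh, a subunit of complex III, fell by 1.24 ± 0.30, from 383, 601 and 219 to 177, 201 and 132 CPM (adjusted p = 0.00516). Ndufa4 fell by 1.03 ± 0.28 and Ndufa1, a subunit of complex I, by 0.92 ± 0.31 (adjusted p = 0.0107 and 0.0395). All 3 turned sign with spike-in scaling, under which none was called lower. The call of Uqcrh was lost without Ly6Clow replicate 23 (adjusted p = 0.0544), that of Ndufa4 without glioma replicate 26 (adjusted p = 0.061), and that of Ndufa1 without any of the compared replicates but Ly6Clow replicate 24 (adjusted p 0.0621 to 0.16) and with the mouse as a block (adjusted p = 0.0759).

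**Figure D4:**
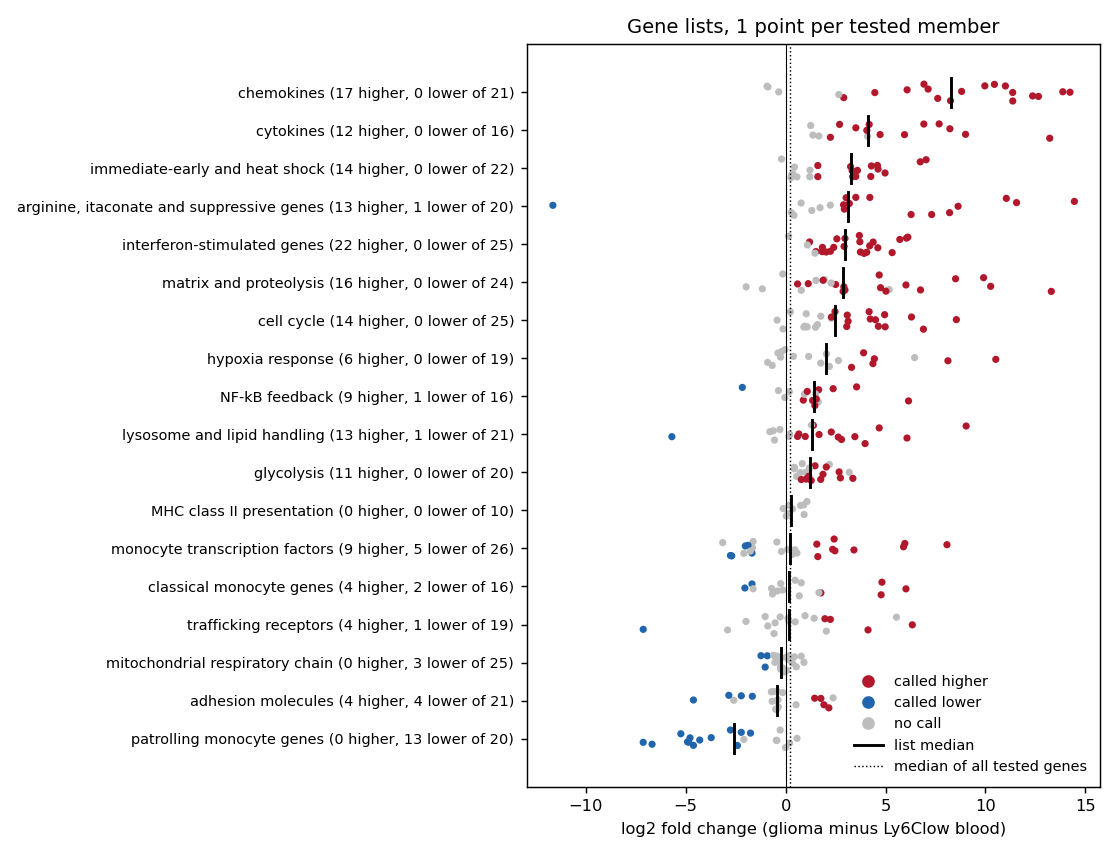
Fitted log2 fold change, glioma monocytes minus Ly6Clow monocytes, of each tested member of the biology lists, with 1 point per gene, list medians as bars and the median of all genes (0.24) as a dotted line. The patrolling list sits below 0 (median -2.59), the MHC class II list on the dotted line (0.25), and the chemokine (8.25), cytokine (4.14), immediate-early (3.29) and interferon lists (2.97) above it.

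Of 22 lysosome and lipid genes 21 were tested, 13 were called higher and 1, Fabp4, lower, beside 13% and 5.51% of all genes. The median was 1.30. Ctsd, the aspartic protease cathepsin D, rose from 885, 524 and 725 to 5246, 4347 and 5195 CPM (log2 difference 2.79 ± 0.24, adjusted p = 6.19e-09). Cd63, a tetraspanin of late endosomes and secreted vesicles, rose from 8.49, 9.25 and 5.33 to 522, 349.6 and 675 CPM (6.07 ± 0.48, adjusted p = 1.62e-09). Gpnmb, a glycoprotein of lysosome-rich macrophages, rose from 0, 0 and 5.03 to 1259, 250.02 and 1591 CPM (9.03 ± 1.1, adjusted p = 1.41e-06), and Ctsl, cathepsin L, from 42.5, 5.78 and 24 to 420.4, 362 and 1062 CPM (4.68 ± 0.54, adjusted p = 6.28e-07). In Ctsd and Cd63 the replicates of each population lay close together. Gpnmb varied among the glioma replicates, with the lowest in mouse 24.

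Of 24 matrix and proteolysis genes, all tested, 16 were called higher and 0 lower, beside 13% and 5.51% of all genes. The median was 2.89. Sparc (chr11:55394500-55423183, GRCm38, minus strand), a matrix-binding glycoprotein that microglia also express, was at 0 in all blood monocyte libraries and at 362, 536 and 449 CPM in the glioma monocytes, at least 389-fold higher than in Ly6Clow monocytes (adjusted p = 8.61e-11). Tgfbi, a matrix protein induced by TGF-beta, rose from 279.7, 856 and 538 to 4363, 3668 and 5060.4 CPM (log2 difference 2.97 ± 0.33, adjusted p = 4.2e-07) and was at 1506, 1924 and 1375 CPM in Ly6Chigh monocytes. Mmp13, a collagenase, was at 0 in Ly6Clow monocytes and at 50.7, 26.8 and 87.1 CPM in glioma monocytes, at least 47.6-fold higher (adjusted p = 1.64e-07). Tgfbi thus rose in order from Ly6Clow through Ly6Chigh to glioma monocytes, each step past the threshold (Ly6Chigh minus Ly6Clow 1.52, adjusted p = 0.00453, and glioma minus Ly6Chigh 1.45, adjusted p = 0.00219). Spint1, an inhibitor of serine proteases outside the lists, was at 0 in Ly6Clow monocytes and at 304, 269.8 and 165 CPM in glioma monocytes, at least 213-fold higher (adjusted p = 1.66e-06).

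Transcription factors of monocytes were called in both directions, 9 of 26 higher and 5 lower, beside 13% and 5.51% of all genes, with a median of 0.21. Bhlhe40, a basic helix-loop-helix repressor, rose from 175, 125 and 284 to 558, 1259.8 and 1164 CPM (log2 difference 2.35 ± 0.41, adjusted p = 0.000198). Irf8, which directs monocyte and dendritic cell development, rose from 215, 57.8 and 323 to 1175, 1264 and 760.1 CPM (2.42 ± 0.43, adjusted p = 0.000245). Klf6 rose by 1.61 ± 0.30 (adjusted p = 0.000369). Irf8 was at 572, 648 and 704 CPM in Ly6Chigh monocytes, and the step from there to the glioma monocytes did not pass (adjusted p = 0.293). Of those lower, Pou2f2 and Klf4 are given above. Hes1, a target of Notch signaling, fell by 2.70 ± 0.84, Cebpb by 2.02 ± 0.66 and Mafg by 1.89 ± 0.56 (adjusted p = 0.0254, 0.0322 and 0.0205). These calls were fragile: Hes1 lost it without glioma replicate 22 or 26 or Ly6Clow replicate 22 (adjusted p up to 0.131), Cebpb without any library but Ly6Clow replicate 24 (up to 0.134), and Mafg without glioma replicate 22 or 24 or the mouse 23 library (up to 0.545), which alone held 172 CPM. Cebpb and Mafg turned sign with spike-in scaling, and 0 genes of the list were called lower on that scale. When single libraries were left out 1 to 7 genes of the list were called lower. With the mouse as a block Cebpb was not called (adjusted p = 0.0699).

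Receptors that guide monocytes through tissue were called higher for 4 of 19 and lower for 1, S1pr5, shares near the 13% and 5.51% of all genes, with a median of 0.15, beside 0.24. Ccr1, a receptor of inflammatory CC chemokines, rose from 88.2, 60.5 and 37 to 969, 1077 and 1178 CPM (log2 difference 4.12 ± 0.36, adjusted p = 6.33e-09), and Ccrl2, which presents chemerin without signaling, from 33.5, 9.25 and 32.6 to 1806, 1790.3 and 2499 CPM (6.34 ± 0.60, adjusted p = 2.83e-08). C5ar1, the receptor of complement C5a, rose by 2.23 ± 0.75 (adjusted p = 0.038), a call lost without glioma replicate 22 or 26 or Ly6Clow replicate 23 or 24 (adjusted p up to 0.25). Without glioma replicate 26, 2 of the list were called higher. Of 21 adhesion genes, 4 were called higher and 4 lower, beside 13% and 5.51% of all genes, with a median of -0.45. Icam1, an LFA-1 ligand, rose by 1.45 ± 0.32, from 128, 273 and 176 to 533, 717 and 328 CPM, while Icam2, another such ligand, fell by 2.84 ± 0.53, from 194, 109 and 64.5 to 16.1, 18.2 and 16.8 CPM (adjusted p = 0.00228 and 0.000379). Itgb5 and Itga5, integrin chains of vitronectin and fibronectin receptors, rose by 2.16 ± 0.46 and 1.92 ± 0.49 (adjusted p = 0.00162 and 0.00733). Itga4, the alpha chain of VLA-4, fell by 1.67 ± 0.49 (adjusted p = 0.0188), a call lost without glioma replicate 22 or 24 or Ly6Clow replicate 24 (adjusted p 0.0557 to 0.251). With spike-in scaling the calls of Icam2 and Itga4 were lost.

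Cell cycle genes were higher at low levels. Of 25 tested, 14 were called higher and 0 lower, beside 13% and 5.51% of all genes, with a median of 2.47 (2.29 with bounds). Stmn1, a microtubule regulator of dividing cells, rose from 11.3, 6.55 and 4.44 to 30.6, 23.6 and 54.2 CPM (log2 difference 2.29 ± 0.40, adjusted p = 0.000169), and Ccnb2, a mitotic cyclin, from 0, 0 and 0.296 to 11.5, 12.8 and 34.8 CPM (6.89 ± 1.0, adjusted p = 1.73e-05). The Ly6Clow level of Ccnb2 was below the limit of 3 counts, and its log2 difference ran from 5.75 to 9.1 over the alternatives. Birc5, survivin, rose from 2.36, 0 and 0.296 to 19.6, 5.35 and 54.2 CPM (4.98 ± 0.90, adjusted p = 0.000355) and Rrm2, a ribonucleotide reductase subunit, from 2.36, 0.386 and 10.1 to 35.6, 23.6 and 52.9 CPM (3.06 ± 0.57, adjusted p = 0.000379). All 4 were highest in mouse 26. With only the compared libraries in the fit 0 of the list were called.

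Markers of other brain and immune cells were read in the glioma monocyte libraries and moved with the comparison. The summed level of 9 microglia markers was 1781 to 3142 CPM in glioma monocytes, 145 to 276 CPM in Ly6Clow and 185 to 285 CPM in Ly6Chigh monocytes. Of the 9, 8 were called higher, beside 13% of all genes, with a median of 8.45 (4.93 with bounds). Tmem119 (chr5:113793729-113800516, GRCm38, minus strand), Sall1, Siglech and Slc2a5 were at 0 in each Ly6Clow library. Tmem119, a defining microglia gene, was at 289.95, 576 and 373 CPM in glioma monocytes, at least 358-fold higher (adjusted p = 2e-11), Siglech at 207, 263 and 138 CPM, at least 176-fold higher, and Sall1, the transcription factor of microglial identity, at 2.51, 26.8 and 17.4 CPM, at least 13.5-fold higher (adjusted p = 4e-08 and 0.000209). P2ry12, the purinergic receptor, rose from 0.472, 32 and 3.26 to 262, 685 and 150.3 CPM (log2 difference 4.93 ± 0.99, adjusted p = 0.000849) and Olfml3 from 0, 0 and 0.888 to 226, 397 and 313 CPM (9.59 ± 0.55, adjusted p = 6.57e-12). The Ly6Clow level of Olfml3 was near the limit of 3 counts, and its log2 difference ran from 9.06 to 12.76 over the alternatives. Gpr34 rose by 5.39 ± 0.91 (adjusted p = 0.000132), and Slc2a5 was at least 29.1-fold higher (adjusted p = 0.000139). Most of the microglia markers were highest in mouse 24. Whether microglia passed the glioma gate, which asked for high Ly6C, was not tested. The part of these cells in the values of Sparc, Trem2 and other genes above was not tested.

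Of 9 tested B and plasma cell markers 3 were called higher, all 3 of immunoglobulin, and 0 lower, beside 13% and 5.51% of all genes. The other 6, among them Ms4a1, Cd79a and Ighm, had negative fitted values without a call, and the median of the list was -0.05, beside 0.24 over all genes. Igj, the joining chain, was at 0 in Ly6Clow monocytes and at 131, 508 and 234 CPM in glioma monocytes, at least 252-fold higher (adjusted p = 0.00011), Igkc rose from 225, 182 and 106 to 1300.3, 1545 and 1245 CPM (log2 difference 2.99 ± 0.73, adjusted p = 0.00493), and Igha was at 0 against 141, 1715 and 860.1 CPM, at least 785-fold higher (adjusted p = 0.0223), a call lost without Ly6Clow replicate 22 or 23 (adjusted p = 0.0596 and 0.0906). The summed markers ran from 2559 to 4576 CPM against 1030 to 1326 CPM. Of 11 T and NK cell markers 1 was called higher and 0 lower, beside 13% and 5.51% of all genes. It was Gzmb, a protease of cytotoxic granules, which rose from 39.2, 0 and 23.1 to 198, 716 and 318 CPM (4.31 ± 0.88, adjusted p = 0.001). Neutrophil, erythroid, platelet and neuron markers gave 0 calls by edgeR (4, 0, 0 and 0 with an unadjusted p under 0.05), and DESeq2 called 3, 0, 0 and 0, those 3 higher. The summed neutrophil markers ran from 314 to 2068 CPM in glioma monocytes and 820 to 1134 CPM in Ly6Clow monocytes.

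Of 9 tested astrocyte and oligodendrocyte markers 5 were called higher and 1 lower, beside 13% and 5.51% of all genes. Their summed level overlapped at 473 to 546 CPM in glioma and 441 to 751 CPM in Ly6Clow monocytes. Slc1a3 and Gfap were at 0 in each Ly6Clow library and at 21.1, 19.3 and 18.7 and at 5.52, 9.1 and 14.8 CPM in glioma monocytes. Aldh1l1 rose by 3.41 ± 1.01 and Cnp by 0.92 ± 0.28 (adjusted p = 0.0191 and 0.0244), and each call was lost without 3 of the 6 replicates in turn, glioma replicate 26 and Ly6Clow replicate 23 for both, with Ly6Clow replicate 22 for Aldh1l1 and glioma replicate 24 for Cnp (adjusted p up to 0.0851 and 0.131). Mbp, whose locus also gives transcripts in leukocytes, fell by 2.30 ± 0.40 (adjusted p = 0.000197), a call lost with spike-in scaling. Of 7 tested markers of glioma, stroma and endothelium 2 were called higher, beside 13% of all genes. Of the 9 on the list 7 had no read in any Ly6Clow library. Such genes enter the test only through the populations in which they were read. With a filter of 1 count in any library 0 of the list were called. The endothelial gene Cldn5 was at 0 against 18.1, 5.35 and 40 CPM and Cspg4 at 0 against 7.52, 2.14 and 43.9 CPM (adjusted p = 0.0178 and 0.0223). Both were highest in mouse 26, without which neither was called (adjusted p = 0.0508 and 0.103), and neither was called without Ly6Clow replicate 23 (adjusted p = 0.0626 for Cldn5), nor Cspg4 without Ly6Clow replicate 22. The summed levels of this list were 11.2 to 223 CPM in glioma and 0 to 12.3 CPM in Ly6Clow monocytes.

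**Figure D5:**
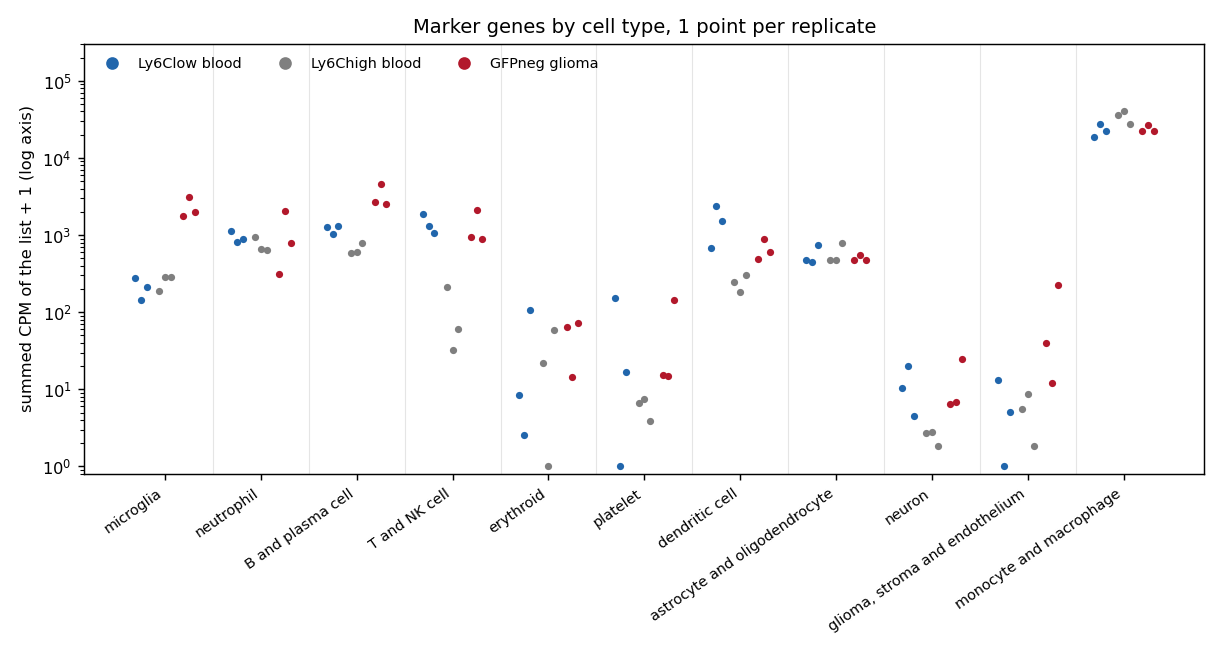
Summed normalized read counts (CPM, log axis) of each marker list in each replicate of the glioma and blood monocyte populations, with 1 point per mouse. The microglia sum separates glioma monocytes (1781 to 3142 CPM) from Ly6Clow monocytes (145 to 276 CPM), and the T and NK cell sum does not (896 to 2104 against 1071 to 1876 CPM).

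Glioma monocytes that had taken up tumor GFP (GFPpos, from mice 22, 24 and 26) were compared with the same Ly6Clow libraries, so the results share their controls and are set side by side only. Against Ly6Clow monocytes 1842 genes (15.9%) were called higher and 727 (6.29%) lower in the GFPpos cells. Of the patrolling genes 13 were called lower and 0 higher there, with a median of -3.0, of the chemokines 16 higher and 1 lower (median 8.15), and of the interferon-stimulated genes 17 higher and 0 lower (median 2.58). Retnla was at 0, 3.41 and 0 CPM, Eno3 at 21, 14.3 and 29.3 CPM, Ccl2 at 595, 225 and 510.1 CPM and Il1b at 3505, 1910.3 and 3349 CPM in the GFPpos replicates. Fcgr4 was at 876, 473 and 432 CPM there, a log2 difference from Ly6Clow monocytes of 0.21 (adjusted p = 0.704), and H2-Aa at 10050.1, 7259 and 3277 CPM, a difference of 0.45 (adjusted p = 0.427).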

How the data were processed

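RNA of sorted cells was reverse transcribed from poly-A tails, with ERCC spike-in RNA added, and sequenced as paired ends. STAR served the authors for alignment to mm10, Picard 1.8.4 for the removal of duplicates and htseq-count, in intersection-strict mode on a Gencode GRCm38 annotation, for the counts per gene, which were deposited raw. A strand setting is not given in the sources used here, so antisense and overlapping genes cannot be told apart. Duplicate removal limits the counts of very abundant genes.

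The table holds 45317 gene symbols and 92 spike-ins, and 41743 symbols (92.1%) were matched to GENCODE vM21 for positions. Reads on no annotated gene were left out of library sizes and tests (8.5% to 10.8% of the glioma monocyte reads and 12.0% to 17.4% of the Ly6Clow reads). Library columns were assigned through the names in the labels, and replicates are separate mice. The first library of Ly6Clow mouse 23 was left out, because fewer than 6000 genes reached 5 reads, and a pair of libraries of GFPpos glioma monocytes of mouse 22 was summed. Counts were tested with edgeR 4.0.16 in R 4.3.3 (filterByExpr, TMM, robust quasi-likelihood) in 1 fit over all 8 populations, with Benjamini-Hochberg adjustment over 11566 genes and a threshold of 0.05. SE was derived from the fold change and its F statistic. A gene at 0 may hold up to 3 counts per library, and this limit and the interval of pooled ratios cover counting error only. The script was tested on simulated data. Promoter sequences are from RefSeq, GRCm38.p6.

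The compared populations, the 18 gene lists and 12 marker lists were chosen with earlier results of these data known, and some list members come from the study's own subject, so their counts are a description. Named genes are the 10 in each direction with the largest fitted change among called genes of at least 10 CPM on average without overlap, up to 4 called members of each list per direction, the sort markers, called cell markers and all patrolling and classical genes. Some genes that this rule names are counted in their lists but are not reported here. A fitted change against a population at 0 or at a few reads depends on the prior count, so that order is not one of measured change. How many of the called genes also differed between the blood populations is not reported, because both comparisons share the Ly6Clow libraries. Mice 22 and 24 gave both populations, so the mouse number pairs those samples. The correlation of their deviations from the population means was 0.063 and -0.034. Alternatives were DESeq2 size factors, spike-in scaling, other filters, only the compared libraries, the mouse as a block, other libraries of mouse 23, leaving out single replicates and DESeq2 1.42.0.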

Additional observations from a re-analysis of the deposited data

How the results depend on the processing

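The count of genes called lower was 12 with spike-in scaling, 350 with a filter of 1 count in any library, 57 in a fit of only the 6 compared libraries, 418 with mice 22 and 24 alone and a replicate block, and 387 with the first library of Ly6Clow mouse 23, against 637. The count called higher was 469 with a filter of 10 counts in all 6 compared libraries, which tests 4947 genes and drops those at 0 in a population, and 169 in a fit of only the 6 compared libraries, against 1506. The share of calls that were higher, 70.3%, became 99.2% with spike-in scaling, 78.0% with the filter of 1 count, 49.1% with the filter of 10 counts and 78.9% with the first library of mouse 23. Leaving out single replicates gave 1111 to 2392 genes higher, 315 to 918 lower and a share of 64.7% to 77.9%. The lowest counts were without glioma replicate 26 and the highest without Ly6Clow replicate 24. With the mouse as a replicate block 1613 genes were called higher and 613 lower, a pairing that lost 3 and gained 3 calls among the 139 named genes, Cebpb, Ndufa1 and Zfp712 against Klf2, Chil3 and Plac8. DESeq2 called 2028 higher and 859 lower and lost none of the 119 named genes called.

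Log2 fold changes that turned positive with spike-in scaling were S100a4 (0.16), Klf4 (0.41), Mafg (0.96), Cebpb (0.43), Uqcrh (0.84), Ndufa4 (0.87), Ndufa1 (1.10) and Ptprc (0.56), and with the first library of mouse 23 Mafg (0.11). That scaling shifts the median of all genes from 0.24 to 1.70. In a fit of only the 6 compared libraries 50 of 115 named calls were lost. The spread is estimated there from those libraries alone, and in the main fit from all 8 populations. With the filter of 10 counts 80 of the named genes were tested. The cause of these changes in calls was not tested. Depth limits genes near 3 counts per library.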
